A study of Mus musculus with 2 samples.

Results

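The genes described here code for the proteoglycans and linking proteins of cartilage matrix: Acan, Hapln1, Vcan, Matn1, Matn3, Matn4, Cnmd, Mia and Scrg1. They were chosen by symbol, 9 of the 32285 genes in the count tables, and all 9 were present and counted in both libraries. The data were scRNA-seq of callus, the tissue that bridges a broken bone as it heals, from wild-type male C57BL/6J mice that were 12 weeks old, with a transverse mid-femur fracture held by a needle in the marrow cavity. No transgene or drug was used, so both libraries share the fracture and the pin. Calluses were taken 10 days (n = 5 mice) and 20 days (n = 5 mice) after fracture, but the labels give neither library, MGJ or MGJ2, a day. The mice of a library cannot be told apart by barcode. Each library is therefore 1 sample without a group, the values are given side by side, and no comparison of days and no test across samples was made.

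Cartilage matrix owes its stiffness under load to aggrecan, the Acan product, a core protein that carries many chondroitin sulfate chains and draws water. Aggrecan molecules line up along hyaluronan, and the link protein from Hapln1 locks each one in place; versican, from Vcan, is the related proteoglycan of looser connective tissue and of early mesenchymal condensations. Matrilins, among them the products of Matn1, Matn3 and Matn4, are adaptor proteins that connect collagen fibrils with aggrecan. Chondromodulin, from Cnmd, is a cartilage protein known to restrain blood vessel growth, Mia codes for a small protein secreted by chondrocytes, and Scrg1 for a small secreted protein known from cartilage and mesenchymal cells. In a healing fracture, chondrocytes that express the fibrillar collagen gene Col2a1 enlarge, switch on Col10a1 and give way to bone.

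Levels are in CPM: the UMIs of a gene, each standing for 1 captured RNA molecule, over all UMIs of a class of cells, times 1000000. These 3′ counts do not scale with gene length. Intervals in parentheses after a level, a ratio or a share are exact 95% intervals, and they cover counting error only. MGJ held 14295 barcodes and MGJ2 held 8009, with median totals of 5026 and 4952 UMIs, of which 13267 and 7584 cells were kept. Joint clustering gave 33 clusters, 18 of them with more than 90% of their cells from 1 library, and 19 barcodes occurred in both libraries, 13 among kept cells. Chondrocyte-like cells, 3 clusters in which all 7 chondrocyte markers (Col2a1, Col9a1, Col9a2, Col9a3, Col11a1, Col11a2 and Sox9) were detected, numbered 2952 in MGJ (22.3% of cells) and 153 in MGJ2 (2.02%). The 9 genes were kept out of clustering and none was a marker, but a class found by clustering was still set against other cells as a description.

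The 9 genes lie on 7 chromosomes of GRCm38, and 1 pair are neighbours. Hapln1 (ENSMUSG00000021613) spans 89539796 to 89611652 on the plus strand of chromosome 13, and Vcan (ENSMUSG00000021614) spans 89655312 to 89742509 on its minus strand. They are 43.7 kb apart with 0 coding genes between them. Acan (ENSMUSG00000030607) spans 79053483 to 79115099 on the plus strand of chromosome 7, 3 bases from the gene of another link protein, Hapln3. Matn1 (ENSMUSG00000040533) lies at 130944385 to 130955475 on chromosome 4, Matn3 (ENSMUSG00000020583) at 8947929 to 8972028 on chromosome 12, Matn4 (ENSMUSG00000016995) at 164389393 to 164405160 on chromosome 2, Cnmd (ENSMUSG00000022025) at 79637690 to 79662170 on chromosome 14, Mia (ENSMUSG00000089661) at 27179742 to 27181157 on chromosome 7 and Scrg1 (ENSMUSG00000031610) at 57455923 to 57477585 on chromosome 8.

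The 250 bases before the transcription start of Acan, Hapln1 and Vcan are shown because the core protein and its link protein were high in the same cells while the neighbour of Hapln1 was high in others. They are RefSeq sequences on GRCm38.p6, 5′ to 3′ on the strand of each gene, all in lower case since none of the letters searched for was found. The Acan stretch is chr7:79052976-79053225 on the plus strand, that of Hapln1 chr13:89540386-89540635 on the plus strand and that of Vcan chr13:89742513-89742762 on the minus strand. For Hapln1 the RefSeq start lies downstream of the GENCODE start, so its stretch falls inside the GENCODE span of the gene.
Acan: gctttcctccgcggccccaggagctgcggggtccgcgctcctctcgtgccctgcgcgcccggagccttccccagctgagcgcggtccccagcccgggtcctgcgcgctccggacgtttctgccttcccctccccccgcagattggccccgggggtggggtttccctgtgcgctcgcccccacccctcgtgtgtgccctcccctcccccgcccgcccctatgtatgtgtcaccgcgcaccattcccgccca
Hapln1: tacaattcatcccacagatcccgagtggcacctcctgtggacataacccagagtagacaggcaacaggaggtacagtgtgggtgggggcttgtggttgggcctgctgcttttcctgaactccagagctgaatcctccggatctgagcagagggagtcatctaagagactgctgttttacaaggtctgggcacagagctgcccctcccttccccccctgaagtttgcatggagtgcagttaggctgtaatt
Vcan: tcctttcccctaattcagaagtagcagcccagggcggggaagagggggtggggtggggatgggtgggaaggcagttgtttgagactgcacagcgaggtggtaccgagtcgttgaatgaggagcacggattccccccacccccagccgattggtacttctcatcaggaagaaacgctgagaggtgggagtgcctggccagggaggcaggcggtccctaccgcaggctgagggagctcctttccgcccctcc
Of these stretches 74.4% of bases were G or C for Acan, 54.4% for Hapln1 and 62.4% for Vcan. The RefSeq table had windows of 250 bases before to 50 bases after the start for 8 of the 9 genes, 9 windows in all. AACAAT and ACAAAG, core letters of sites bound by SOX-family factors, were searched on both strands. They were found in 0 of the 9 windows, against 10.7% and 18.7% of 32851 promoters of the same length, and 27.0% held either motif. The 6 letters are short and absence from these windows says nothing about the factors.

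Chondrocyte-like cells held 8 of the 9 genes at far higher levels than the remaining cells, and Vcan at a lower level, in both libraries. Acan stood at 5125 CPM (5108 to 5143) in chondrocyte-like cells of MGJ and at 386 CPM over all other cells, a ratio of 13.3 (13.1 to 13.5). In MGJ2 the same levels were 4476 CPM (4415 to 4539) and 8.62 CPM, a ratio of 520 (474 to 571). The other cells differed between the libraries, so the sizes of these ratios are not compared. They included cells of unnamed clusters, 4023 in MGJ (30.3% of kept cells) and 219 in MGJ2 (2.89%). Tendon-like cells among them numbered 768 in MGJ and 5 in MGJ2. Hapln1 followed with 4668 CPM (4651 to 4686) against 101 CPM in MGJ, 46.4 times higher (45.3 to 47.5), and with 3127 CPM (3076 to 3180) against 3.95 CPM in MGJ2, 791 times higher (691 to 910). Vcan was counted at 14.4 CPM (13.4 to 15.3) in chondrocyte-like cells of MGJ and at 208 CPM elsewhere, 14.5-fold lower. In MGJ2 its levels were 11.6 CPM (8.66 to 15.2), from 52 UMIs, and 99.7 CPM, 8.60-fold lower.

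Among the matrilins Matn3 was the highest in chondrocyte-like cells, with 3137 CPM in MGJ and 1588 CPM in MGJ2, 29.4 times (28.7 to 30.1) and 655 times (551 to 785) the level of other cells. Matn4 was counted at 351 CPM in MGJ and 335 CPM in MGJ2, with ratios of 8.76 (8.41 to 9.11) and 160 (132 to 196). Matn1 reached 289 CPM in MGJ and 81.6 CPM in MGJ2, from 366 UMIs in the latter, with ratios of 58.5 (52.5 to 65.3) and 208 (134 to 341). In MGJ, Matn4 thus had the smallest ratio of the 8 genes that were higher, and Matn1 the largest beside Mia, whose interval overlapped with it.

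Of the secreted proteins, Cnmd was counted at 2148 CPM in MGJ and 1495 CPM in MGJ2, with ratios of 33.9 (32.9 to 34.9) and 507 (433 to 598). Mia stood at 1835 CPM and 845 CPM, 56.9 times (54.5 to 59.3) and 589 times (470 to 748) the remaining cells. For Scrg1, 539 CPM in MGJ and 290 CPM in MGJ2 gave ratios of 24.2 (23.0 to 25.5) and 89.8 (76.6 to 106), the lowest of the 8 in MGJ2. Levels within chondrocyte-like cells spanned more than an order of magnitude across the 9 genes in both libraries, Acan at the top and Vcan at the bottom.

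At least 2 times higher is the rule used here for a difference, since cells of 1 sample are not replicates. In MGJ 8 of 9 genes passed it upwards and 1 downwards, where 13.2% of the 13437 genes with at least 100 UMIs passed upwards and 24.9% downwards. The MGJ2 counts were also 8 and 1, where 18% of 11814 genes were higher and 32.3% lower. The median ratio of the 9 genes was 29.4 in MGJ and 507 in MGJ2, beside medians of 0.874 and 0.771 over all genes tested. When 104 other cells of MGJ and 4 of MGJ2 with at least 10000 CPM of Col2a1 were left out, an alternative chosen after seeing the data, the counts were again 8 and 1 in each library.

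**Figure D1:**
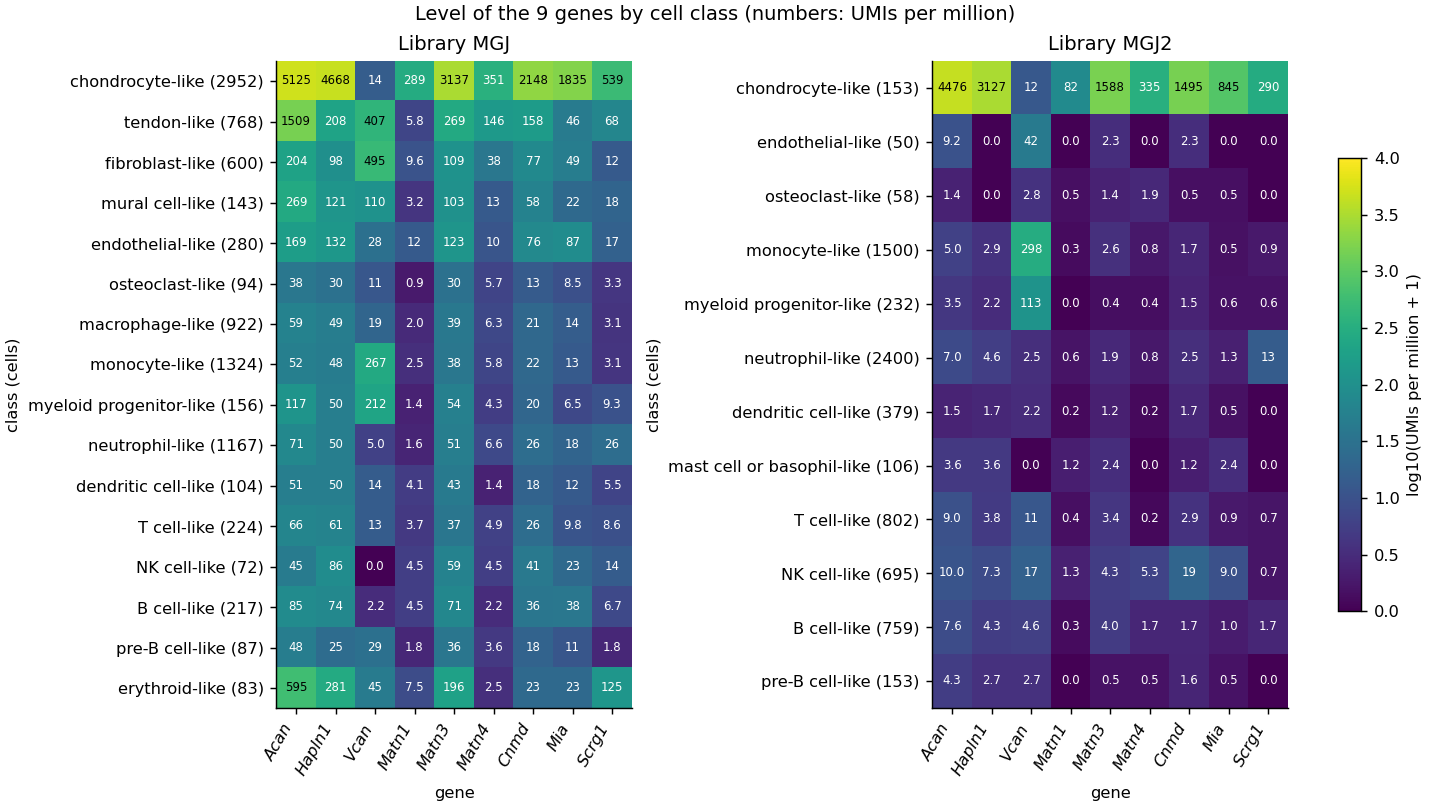
Levels of the 9 genes in CPM (numbers, and colour on a log10 scale of the level plus 1) for each cell class of at least 50 cells in MGJ (left) and MGJ2 (right), with the number of cells in parentheses. The top row, chondrocyte-like cells, is the highest for every gene except Vcan, which reaches 495 in fibroblast-like cells of MGJ and 298 in monocyte-like cells of MGJ2.

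Neutrophil-like cells were taken as the class that should lack cartilage genes, and their levels are given for comparison. The source of their UMIs, such as free RNA or remaining doublets, was not tested. Scrg1 in neutrophil-like cells is described below. In MGJ, Acan was counted there at 71.4 CPM, Matn3 at 50.5 CPM, Hapln1 at 50.3 CPM, Cnmd at 26.2 CPM and Mia at 18.4 CPM, and in MGJ2 these 5 genes stood between 1.28 and 7.05 CPM. After thinning each cell to 2000 UMIs, 96.8% of chondrocyte-like cells of MGJ (96.1 to 97.4, n = 2906 cells) held an Acan UMI, and 11.9% of neutrophil-like cells (9.86 to 14.3, n = 880). The thinned shares of Hapln1 were 91.0% and 8.30%, and those of Cnmd 84.3% and 4.32%. Median depth before thinning was 20695 UMIs in chondrocyte-like and 3761 UMIs in neutrophil-like cells of MGJ. Among the sparser genes, 23.8% of chondrocyte-like cells held a UMI of Matn1 (22.2 to 25.4) and 41.7% a UMI of Matn4 (39.9 to 43.6). In MGJ2 the Acan shares were 93.4% (88.2 to 96.8, n = 151) and 1.81% (1.25 to 2.53, n = 1828), and the Matn1 share in chondrocyte-like cells was 9.93% (5.67 to 15.9).

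RNA from 1 source would keep its genes in 1 ratio in every class, so each gene was also counted per Col2a1 UMI and divided by the same quantity in chondrocyte-like cells, after leaving out cells with at least 10000 CPM of Col2a1. Hapln1 stayed near 1 in most classes, at 1.06 in endothelial-like cells of MGJ. Mia stood at 0.92 there, but lower in several larger classes of MGJ. It was at 0.66 (0.53 to 0.81) in fibroblast-like, 0.69 (0.56 to 0.84) in macrophage-like and 0.78 (0.64 to 0.94) in monocyte-like cells. Larger departures from 1 included Vcan in several classes, Acan in tendon-like cells, Matn4 in tendon-like and fibroblast-like cells, and Scrg1 in neutrophil-like cells.

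**Figure D2:**
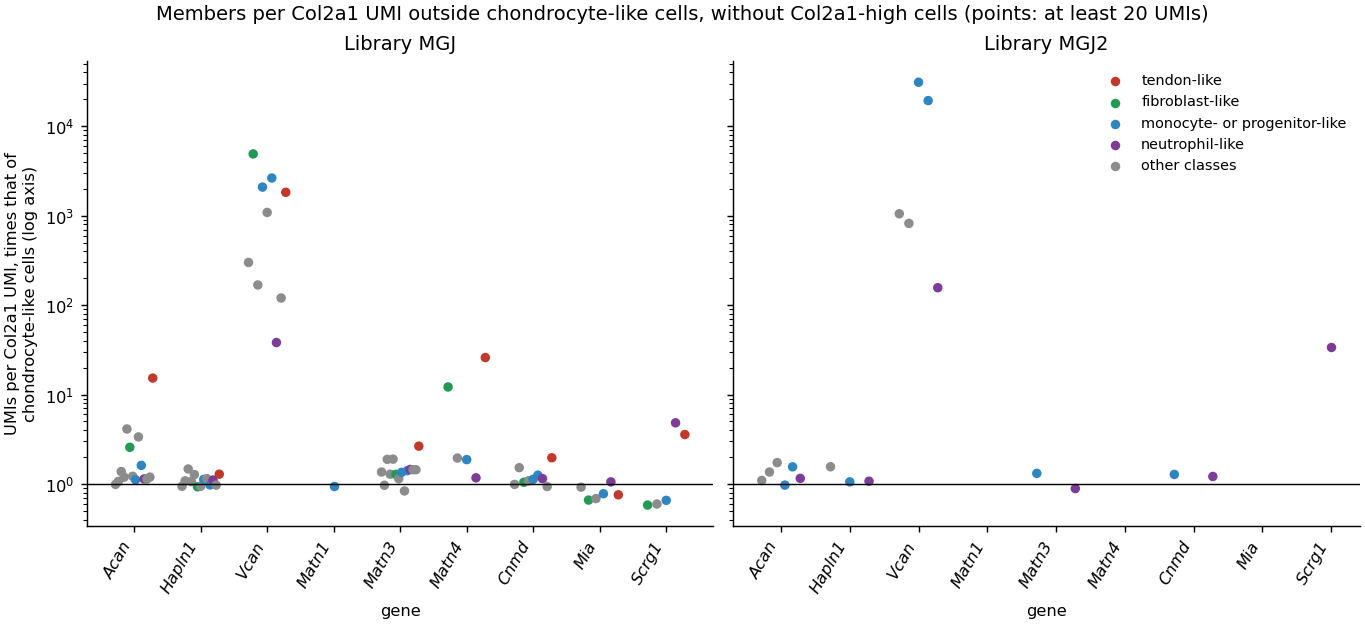
UMIs of each gene per Col2a1 UMI in classes other than chondrocyte-like cells, as a multiple of the chondrocyte-like value (log axis, line at 1), without cells of at least 10000 CPM of Col2a1; each point is a class in which the gene had at least 20 UMIs. Most points lie near 1. Those further off include Vcan in several classes, and Acan at 15.3 and Matn4 at 26.0 in tendon-like cells of MGJ. They also include Matn4 at 12.2 in fibroblast-like cells of MGJ, and Scrg1 at 4.83 and 33.9 in neutrophil-like cells. In MGJ, Acan stands at 2.57 in fibroblast-like, 3.36 in mural cell-like and 4.12 in erythroid-like cells.

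Acan and Matn4 were also high in tendon-like cells, a cluster led by Tnmd, Aspn and Thbs4 with 768 cells in MGJ. Acan stood at 1509 CPM (1488 to 1530) in these cells, the next level after chondrocyte-like cells, and 72.1% of thinned cells held an Acan UMI (68.7 to 75.3, n = 752). Without 57 cells of at least 10000 CPM of Col2a1 its level was 1285 CPM (1265 to 1306), 15.3 times (15.04 to 15.54) the chondrocyte-like value per Col2a1 UMI. Col2a1 itself stood at 874 CPM in the tendon-like cells left, beside 485 CPM in neutrophil-like cells. Acan per Col2a1 UMI was also above the chondrocyte-like value in other classes of MGJ without Col2a1-high cells. It was 2.57 times (2.41 to 2.74) that value in fibroblast-like and 3.36 times (2.85 to 3.94) in mural cell-like cells. In erythroid-like cells it was 4.12 times (3.22 to 5.20). In the last 2 classes 1 cell gave 47.0% and 81.7% of the Acan UMIs. Matn4 reached 146 CPM (140 to 153) in tendon-like cells, and 149 CPM without those 57 cells, 26.0 times (24.7 to 27.2) the chondrocyte-like value per Col2a1 UMI. Fibroblast-like cells, 600 in MGJ, followed with 37.7 CPM of Matn4, and 30.6 CPM without 15 Col2a1-high cells, 12.2 times (10.8 to 13.6) the chondrocyte-like value. MGJ2 held only 5 tendon-like cells, with 98 UMIs of Acan (996 CPM, 808 to 1213) and 20 UMIs of Matn4 (203 CPM, 124 to 314).

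Vcan was highest in fibroblast-like cells of MGJ, with 495 CPM (482 to 509), then in tendon-like cells with 407 CPM (396 to 418), monocyte-like cells with 267 CPM (256 to 278) and myeloid progenitor-like cells with 212 CPM (195 to 230). These 4 levels did not overlap in their intervals. Mural cell-like cells, the contractile cells of vessel walls, stood at 110 CPM and neutrophil-like cells at 4.96 CPM. The thinned share of cells with a Vcan UMI was 59.6% (55.5 to 63.6) in fibroblast-like, 41.9% in tendon-like, 30.9% in monocyte-like and 25.5% in myeloid progenitor-like cells, against 2.31% in chondrocyte-like cells and 0.909% in neutrophil-like cells. In MGJ2, which held no fibroblast-like class, monocyte-like cells were highest with 298 CPM (289 to 307), and 29.4% of them held a UMI after thinning (27.1 to 31.8, n = 1485). Myeloid progenitor-like cells of MGJ2 had 113 CPM (105 to 121) and neutrophil-like cells 2.47 CPM. In both libraries the monocyte-like level was thus far above that of neutrophil-like cells.

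Scrg1 was also counted in neutrophil-like cells. Its level there was 25.9 CPM (21.8 to 30.4) in MGJ and 13.4 CPM (11.3 to 15.7) in MGJ2, from 146 UMIs in each library. Per Col2a1 UMI that was 4.83 times (4.05 to 5.73) and 33.9 times (28.4 to 40.2) the chondrocyte-like value, while Acan stood at 1.14 and 1.16. Vcan had a larger multiple still, 38.2 (25.2 to 55.6) in MGJ and 157 (94.6 to 254) in MGJ2, from 28 and 27 UMIs. That multiple was not particular to neutrophil-like cells, since chondrocyte-like cells held little Vcan. In MGJ it was 168 in macrophage-like and 2089 in monocyte-like cells, but 9.29 in B cell-like cells, from 1 UMI. The Vcan level of neutrophil-like cells of MGJ, 4.96 CPM, ranked 14 of 16 classes. Within this class the cluster led by Retnlg and Mmp8 held 47.8 CPM of Scrg1 in MGJ (37.2 to 60.5) and 27.5 CPM in MGJ2 (20.5 to 36.1). The cluster led by Ltf and Ngp, markers of immature neutrophils, held 26.4 CPM and 23.4 CPM. By contrast the cluster led by Acod1 and Il1r2, 1429 cells of MGJ2, held 7.91 CPM (5.12 to 11.7). The UMIs came from many cells: 104 neutrophil-like cells of MGJ without Col2a1-high cells and 122 of MGJ2 held at least 1.

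Some high ranks rested on single cells. Erythroid-like cells of MGJ ranked next after chondrocyte-like cells for Scrg1, at 125.4 CPM, and for Hapln1, at 281 CPM, of which 1 cell gave 94.0% and 82.1%. Acan, at 595 CPM there, came to 70.0% from 1 cell. In NK cell-like cells of MGJ2, 1 cell gave 86.0% of the Cnmd UMIs and 85.2% of the Mia UMIs. Below these ranks most classes of MGJ were close together, so that for Matn1 all classes after chondrocyte-like cells lay between 0.942 and 12.4 CPM and neighbours in that order were not separated by their intervals. Where a class of at least 50 cells had 0 UMIs, as for Hapln1 and Mia in 50 endothelial-like cells of MGJ2, 3 counts, taken here as the limit that a count of 0 allows, would be 6.93 CPM.

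The next comparison follows the genes along Col10a1, the collagen gene switched on in hypertrophic chondrocytes, within cells of at least 10000 CPM of Col2a1 and at least 5000 UMIs. These Col2a1-high cells numbered 2674 in MGJ and 115 in MGJ2, 96.9% and 97.4% of them chondrocyte-like by cluster. Cells with under 1000 CPM of Col10a1 were called low (1847 in MGJ, 55 in MGJ2), those from 1000 to under 10000 CPM moderate (366 and 19) and those from 10000 CPM high (461 and 41). Median depth in the low and high cells was 21136 and 22906 UMIs in MGJ, and 29607 and 33146 UMIs in MGJ2. Col2a1 itself, which chose the cells, stood at 53458 CPM in low and 51889 CPM in high cells of MGJ, and at 56103 and 38825 CPM in MGJ2.

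Acan was not among the genes that were lower in Col10a1-high cells. Its levels in low, moderate and high cells were 4697, 6087 and 6410 CPM in MGJ, a ratio of high over low of 1.36 (1.35 to 1.38), and 4540, 5510 and 4774 CPM in MGJ2, a ratio of 1.05 (1.02 to 1.09). The Acan level of the median cell was 4456 CPM in low and 6080 CPM in high cells of MGJ. Hapln1 stood at 3371 CPM in low, 7757 CPM in moderate and 7423 CPM in high cells of MGJ. Its high over low ratio was 2.20 (2.18 to 2.22), the only one of the 9 genes past 2 times higher. In MGJ2 Hapln1 went the other way from low to high, with 4069, 5360 and 2475 CPM and a ratio of 0.608 (0.584 to 0.634). The low cells of MGJ2 were mixed, with 2860 CPM in 42 cells under 300 CPM of Col10a1 and 7349 CPM in the other 13. Both libraries had their Hapln1 maximum of these 3 groups in moderate cells, 19 cells in MGJ2. Vcan was low throughout, with 18.5 CPM in low and 9.16 CPM in high cells of MGJ, a ratio of 0.496 (0.398 to 0.613). MGJ2 had only 18 and 17 Vcan UMIs in these cells, a ratio of 1.05 (0.509 to 2.16), which no difference can be read from at this depth.

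Scrg1, Cnmd and Matn4 were at least 2 times lower in Col10a1-high cells of both libraries. Scrg1 was counted at 670, 486 and 203 CPM from low to high in MGJ, a ratio of 0.303 (0.290 to 0.317), and at 522, 456 and 90.2 CPM in MGJ2, a ratio of 0.173 (0.143 to 0.208). Its thinned share of cells with a UMI was 66.5% in low and 22.6% in high cells of MGJ, and 56.4% (42.3 to 69.7) and 4.88% (0.596 to 16.5) in MGJ2. Thinning is random, and another draw of the same high cells gave 26.5% in MGJ and 7.32% in MGJ2. For Cnmd the levels were 2523, 2004 and 1191 CPM in MGJ, with a ratio of 0.472 (0.463 to 0.481), and 2905, 1854 and 483 CPM in MGJ2, with a ratio of 0.166 (0.153 to 0.180). The median cell of MGJ2 held 3159 CPM of Cnmd in the low and 133 CPM in the high group. Matn4 stood at 401, 315 and 177 CPM in MGJ, a ratio of 0.442 (0.421 to 0.463), and at 660, 191 and 105 CPM in MGJ2, a ratio of 0.160 (0.134 to 0.190). All 3 genes thus had their lowest level in high cells, in both libraries.

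Matn3 and Mia were lower in Col10a1-high cells of MGJ2 by more than 2 times, and in MGJ by less. Matn3 had 3355, 3604 and 2450 CPM in MGJ, a ratio of 0.730 (0.721 to 0.740), and 2544, 2875 and 723 CPM in MGJ2, a ratio of 0.284 (0.265 to 0.304). Mia had 1870, 2086 and 1718 CPM in MGJ, a ratio of 0.919 (0.904 to 0.934), and 1383, 1043 and 506 CPM in MGJ2, a ratio of 0.366 (0.336 to 0.398). Matn1 was the matrilin without a lower level in high than in low cells, and its maximum was in moderate cells. It had 282, 335 and 316 CPM in MGJ, a high over low ratio of 1.12 (1.08 to 1.16). In MGJ2 it had 63.5, 184 and 88.8 CPM, a ratio of 1.40 (1.07 to 1.83), from 102 UMIs in low and 128 in high cells.

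**Figure D3:**
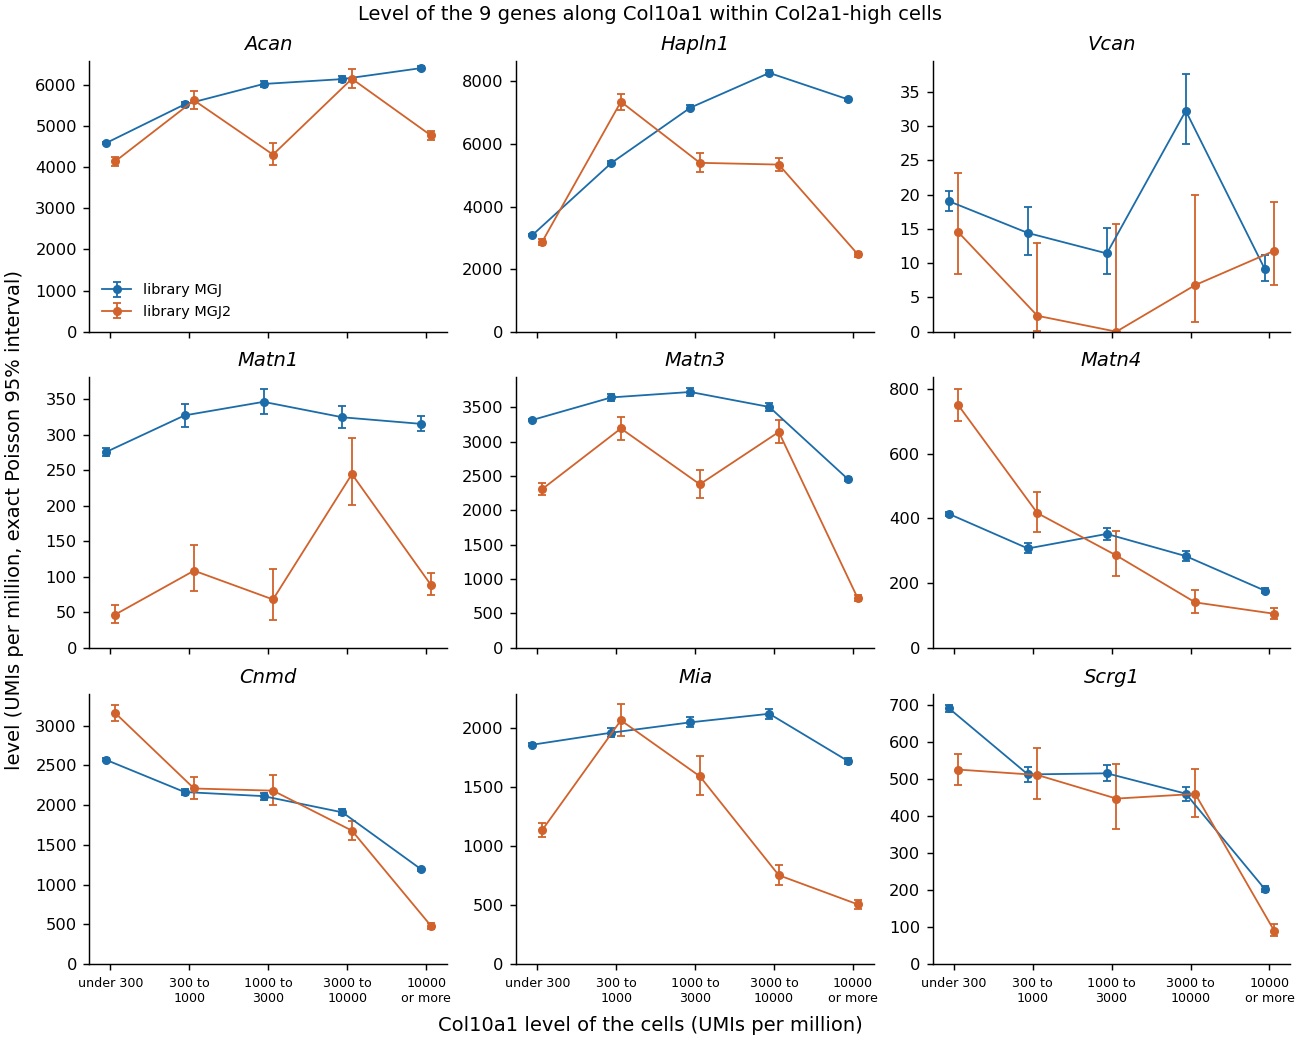
Level of each gene (CPM, vertical axis from 0, exact Poisson 95% intervals) in 5 bins of Col10a1 level, in CPM, within Col2a1-high cells of MGJ (blue) and MGJ2 (orange). The MGJ2 bins hold 42, 13, 7, 12 and 41 cells from left to right, so its middle points rest on few cells, and Scrg1, Cnmd and Matn4 end lower than they start in both libraries.

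In all, 1 of 9 genes was at least 2 times higher in Col10a1-high cells of MGJ and 4 were at least 2 times lower, where 6.07% and 9.62% of 10904 genes passed in those directions. Vcan was the fourth, with an interval that spans the limit. In MGJ2 the counts were 0 and 5 of 8 genes with at least 100 UMIs, where 5.49% and 8.47% of 3517 genes passed. The median ratio of the members was 0.730 in MGJ and 0.325 in MGJ2, beside 0.937 and 0.948 over all genes tested. Markers listed for other cell types moved with this axis. Of the osteoblast markers, Ibsp and Smpd3 were also leading genes of clusters within chondrocyte-like cells, so their sum is not specific to osteoblasts. In MGJ the summed level of 8 osteoblast markers was 6685 CPM in low and 14152 CPM in high cells, that of 6 monocyte markers 200 and 909 CPM, and that of 5 tendon markers 1459 and 601 CPM, with 0 markers at 0. In MGJ2 the sum of 7 neutrophil markers was 215 CPM in low and 3216 CPM in high cells, with 1 marker at 0 in each, that of 6 immature neutrophil markers 60.4 and 1338 CPM, and that of 6 monocyte markers 199 and 1215 CPM. The MGJ2 sums of 5 tendon markers were 1776 and 438 CPM, and those of 8 osteoblast markers 16745 and 15652 CPM, with 1 marker of each list at 0. The part of these transcripts in the ratios was not tested.

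**Figure D4:**
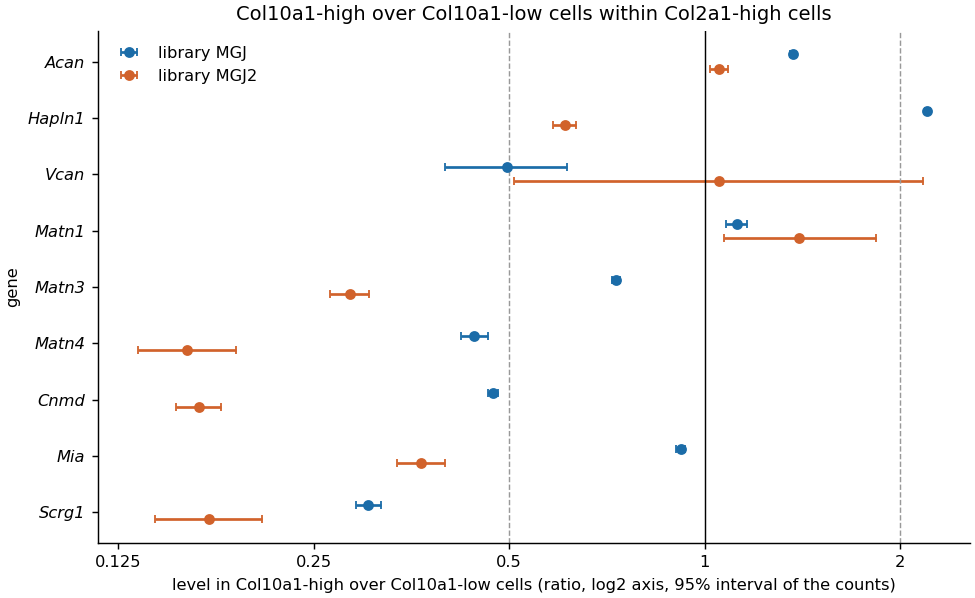
Ratio of the level in Col10a1-high over Col10a1-low cells within Col2a1-high cells (log2 axis, exact 95% intervals of the counts, line at 1 and dashed lines at 0.5 and 2) for each of the 9 genes in MGJ (blue) and MGJ2 (orange). Scrg1, Cnmd and Matn4 lie left of 0.5 in both libraries, and Hapln1 lies on opposite sides of 1.

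Sub-clusters of the chondrocyte-like cells, made without the 9 genes, regroup largely the same cells and are not a separate line of support. Of the chondrocyte-like cells, 87.8% in MGJ and 73.2% in MGJ2 were also Col2a1-high cells of the Col10a1 comparison. Among the 9 chondrocyte-like sub-clusters of MGJ, Acan ranged from 2486 CPM in 195 cells led by Mmp13, a collagenase gene, to 6179 CPM in 486 cells led by Col10a1 and Ihh. Hapln1 ranged from 1852 CPM in the Mmp13-led cells to 6999 CPM in 501 cells led by Ppa1 and Cdkn1c, which also held the highest Matn1 (434 CPM), Matn3 (4334 CPM) and Mia (2538 CPM). Scrg1 spanned 141 CPM in the Col10a1-led cells to 756 CPM in 745 cells led by Penk and Ucma, and Cnmd 926 CPM to 2780 CPM in the same pair. Matn1 was lowest, 45.4 CPM, in 205 cells led by Nrn1 and Chrdl2, although Acan stood at 5871 CPM there. Vcan, between 6.2 and 64.1 CPM, was highest in the Mmp13-led cells, where Acan and Hapln1 were lowest. MGJ2 had 74 Col10a1-led cells, with 4571 CPM of Acan, 345 CPM of Cnmd and 40.3 CPM of Scrg1, and 30 cells led by Rtl3 and Smim5 that held its highest Matn4 among sub-clusters, 922 CPM. The sub-cluster set apart as osteoblast-like, 35 cells of MGJ led by Bglap and Bglap2, held 423 CPM of Acan and 216 CPM of Mia. These cells also held 4409 CPM of Col2a1, and 2 of them were Col2a1-high. The source of these UMIs was not tested.

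Over single Col2a1-high cells thinned to 5000 UMIs, Spearman correlations among the 36 pairs of members ran from -0.12 to 0.56 in MGJ, with a median of 0.11, and from -0.11 to 0.70 in MGJ2, with a median of 0.24. Cells of 1 library share its depth and free RNA, so these are descriptions. The highest pair in MGJ was Acan with Hapln1 at 0.56 (0.61 in MGJ2), the core protein and its link. In MGJ2 it was Cnmd with Mia at 0.70 (0.46 in MGJ). The lowest pair in both libraries was Hapln1 with Vcan, at -0.12 and -0.11, values so close to 0 that sparse Vcan counts leave nothing to read from them. With Col10a1, which chose the groups above, Cnmd stood at -0.36 and -0.62, Scrg1 at -0.36 and -0.50, and Hapln1 at 0.41 in MGJ and -0.05 in MGJ2. Matn4 stood at -0.20 and -0.39, Matn3 at -0.12 and -0.39, and Mia at -0.002 and -0.38.

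**Figure D5:**
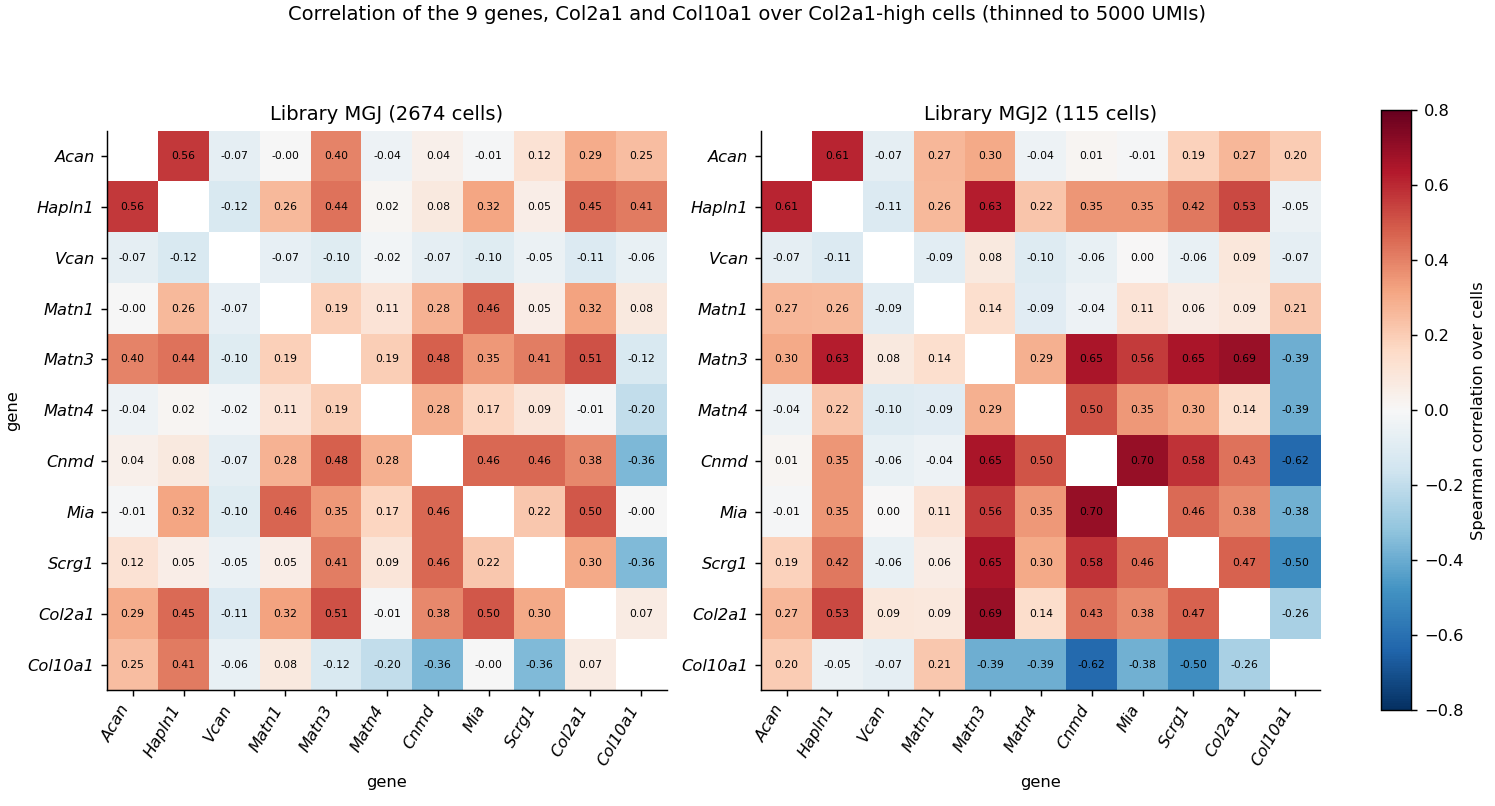
Spearman correlations (numbers and colour) between the 9 genes, Col2a1 and Col10a1 over single Col2a1-high cells thinned to 5000 UMIs, for 2674 cells of MGJ (left) and 115 cells of MGJ2 (right). Acan with Hapln1 is a dark cell in both panels, the Vcan row is near 0, and the Col10a1 row is most negative for Cnmd and Scrg1.

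Likeness of pattern was measured as Pearson's r of log2(CPM + 10) over 28 classes of at least 50 cells (16 in MGJ and 12 in MGJ2), among 10120 genes. These classes share libraries and depth, so r is given without a test. Acan was most like Col11a1 (0.988), Comp (0.985) and Matn3 (0.982), and Hapln1 most like Col9a1 (0.996), Col9a2 (0.993) and Matn3 (0.993). Matn3 was in turn most like Col9a1 (0.993), Hapln1 (0.993) and Col9a3 (0.991). The collagens Col11a1, Col9a1, Col9a2 and Col9a3 were themselves markers that named the chondrocyte-like class. A high r with them thus follows in part from how the classes were named. Matn1 was followed by Epyc (0.975), Ncmap (0.973) and Chadl (0.965). For Cnmd they were Mia (0.980), Ucma (0.974) and Col9a1 (0.965), and for Mia they were Cnmd (0.980), Matn1 (0.957) and Ucma (0.956). Matn4 was closest to Capn6 (0.966), Dusp14 (0.965) and Anxa8 (0.964), and Scrg1 to Grb14 (0.959), Pcolce2 (0.951) and Pth1r (0.949). Vcan had no gene as close, with 0.797 for Ifi211, 0.781 for Dram1 and 0.766 for Msantd3.

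Genes that build and sulfate chondroitin chains included several at least 2 times higher in chondrocyte-like cells, to be read beside the 13.2% of all genes in MGJ and 18% in MGJ2 that were. Of 12 genes for the linker and the chain, 6 were at least 2 times higher and 0 lower in MGJ, from Xylt2, a xylosyltransferase that starts chains, at 0.623 (0.537 to 0.722) to the chain polymerase Chsy1 at 4.37 (4.18 to 4.56). In MGJ2 8 of 12 were higher and 0 lower, from B4galt7 at 1.19 (0.993 to 1.43) to Chsy3 at 66.5 (47.1 to 96.1). The median ratio of these chain genes was 1.97 in MGJ and 3.22 in MGJ2. Of 13 genes for sulfation and sulfate supply, 9 were higher in each library. They ran from Ust at 0.584 (0.495 to 0.687) to Papss2, which makes the sulfate donor, at 11.6 (11.1 to 12.1) in MGJ. In MGJ2 they ran from Chst13 at 0.098 (0.00246 to 0.556), 1 UMI in chondrocyte-like cells and the only gene lower, to Papss2 at 22.3 (20.5 to 24.3).

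Other cartilage matrix genes were 9 higher and 2 lower of 13 in MGJ, from Cilp at 0.174 (0.158 to 0.190) to Snorc, a small cartilage proteoglycan gene, at 52.5 (51.4 to 53.7), and 10 higher of 10 in MGJ2, from Ecm2 at 29.1 (22.1 to 38.7) to Ucma at 1041 (656 to 1761). The SOX factors of cartilage were all higher, with Sox5 lowest at 5.06 (4.71 to 5.45) and Sox6 highest at 8.28 (7.59 to 9.05) in MGJ, and with Sox5 lowest at 71.5 (51.8 to 101) and Sox9, which was a marker, highest at 246 (220 to 275) in MGJ2. Relatives of the members (the other hyalectans, link proteins, Matn2, Tnmd, Mia2, Mia3 and Otor) were 1 higher and 1 lower of 7 in MGJ. Tnmd, which was a marker of tendon-like cells, was lowest at 0.169 (0.159 to 0.179), and Hapln3 highest at 3.34 (2.50 to 4.52). In MGJ2 1 of 3 was higher, with Mia2 lowest at 0.892 (0.782 to 1.01) and Matn2 highest at 23.1 (17.7 to 30.3). Mitosis genes were 0 higher and 2 lower of 10 in MGJ and 0 higher and 7 lower of 10 in MGJ2, with Mki67 lowest in each at 0.358 and 0.0923 and with Tpx2 at 1.11 and Ube2c at 0.671 highest.

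Along Col10a1 none of these lists had a gene at least 2 times higher in Col10a1-high cells, where 6.07% of all genes in MGJ and 5.49% in MGJ2 were. The counts of lower genes stand beside shares of 9.62% and 8.47% of all genes. Lower by at least 2 times were 2 of 12 chain synthesis genes in MGJ (lowest Csgalnact1 at 0.407, highest Xylt2 at 1.69) and 2 of 9 in MGJ2 (Csgalnact1 at 0.213, Chsy3 at 0.883). For sulfation and sulfate supply the counts were 2 of 13 in MGJ (Slc26a2, a sulfate transporter, at 0.391, Chst3 at 1.81) and 6 of 9 in MGJ2 (Slc26a2 at 0.294, Slc35d1 at 0.726). Other matrix genes were lower in 5 of 13 in MGJ (Cilp at 0.114, Snorc at 1.85) and in 3 of 8 in MGJ2 (Epyc at 0.0367, Snorc at 1.24). Sox5 was the SOX factor lower in both, at 0.356 (0.316 to 0.400) in MGJ and 0.315 (0.223 to 0.436) in MGJ2, while Sox9, the highest, stood at 0.866 and 0.736. Of the relatives, 3 of 5 were lower in MGJ (Tnmd at 0.274, Mia3 at 0.698) and 1 of 3 in MGJ2 (Matn2 at 0.299, Mia3 at 0.664). All 10 mitosis genes were lower in MGJ, between Mki67 at 0.0584 and Tpx2 at 0.388, and none had 100 UMIs in MGJ2.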

How the data were processed

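The deposited files are 2 filtered matrices of raw UMI counts, which per the file headers the authors made with Cell Ranger 4.0.0 from 10x Chromium 3′ (v3) libraries aiming at 5000 cells, with no normalization. The submitters' processing notes also name GRCm38 and Seurat; the annotation is not given in the sources used here. Calluses of several mice were pooled before capture. Gene positions come from GENCODE M21 (32158 of 32285 identifiers found) and promoter sequences from RefSeq.

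Kept barcodes had at least 200 genes and at most 20% mitochondrial UMIs; the rest were dropped (371 and 464 in MGJ, 70 and 133 in MGJ2). Doublet calls removed 193 barcodes of MGJ (1.43%, where 11.4% were expected) and 222 of MGJ2 (2.84%, where 6.41% were expected), so some doublets remain. Both libraries were clustered together (scanpy 1.11.5, igraph 0.11.9, 2000 variable genes, 30 components, 15 neighbours, Leiden resolution 1, 0.5 for sub-clusters), leaving out 59 genes: the 9 members and the wider lists, except Sox9, Tnmd, Fmod and the mitosis genes. A cluster took the name of its best marker list when the list's mean log2(CPM + 10) lay at least 1 above the mean over clusters, with at least 3 markers detected. Clusters of low UMI totals, or led by markers of other classes, stayed unnamed. Classes rebuilt in this way can differ from the study's.

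Levels are summed UMIs per 1000000 with exact Poisson 95% intervals, ratios carry exact conditional binomial intervals, and shares are exact Clopper-Pearson intervals after thinning to 2000 UMIs, leaving out shallower cells (46 chondrocyte-like and 287 neutrophil-like cells of MGJ, 2 and 572 of MGJ2). Each share rests on 1 random draw of UMIs, and another draw of the same cells gives a somewhat different share. PCR copies are removed by the UMIs, and all intervals cover counting error only. Ratios were computed over all genes with at least 100 UMIs in the cells compared. No p-value was computed, because each library is 1 sample. Scripts ran in Python 3.11.15 with scipy 1.17.1, pandas 2.3.3 and numpy 2.4.6, and the ratio code was tested on simulated data. Named genes are the 9 members, the highest and lowest gene of each list, and the 3 genes most like each member among those with at least 200 UMIs in each library. The members, lists and limits were chosen with earlier results of these data known. Bpnt2 and Lect1, on the lists, are not symbols in the tables.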

Additional observations from a re-analysis of the deposited data

Results flagged for a closer look

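Barcodes that the filters removed also held the 9 genes. Their summed level was 5906 CPM (5836 to 5977) over the 1028 barcodes removed from MGJ, beside 9071 CPM in kept cells, and 255 CPM (237 to 274) over the 425 barcodes removed from MGJ2, beside 1061 CPM in kept cells. They drew attention because the report does not use these barcodes, and the source of these UMIs was not tested.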

How the results depend on the processing

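The 8 genes that were at least 2 times higher in chondrocyte-like cells stayed so in both libraries under all 11 alternatives that gave a value, and Vcan stayed at least 2 times lower. The sizes moved: at Leiden resolution 2 the MGJ ratios of these 8 genes were lowest, for example 18.2 for Mia, 14.1 for Cnmd and 24.9 for Hapln1, and in MGJ2 Acan fell to 98.7 when Col2a1-high cells were used in place of clusters. Subtracting the neutrophil-like level raised Mia in MGJ2 to 5461. That subtraction gave no ratio for Scrg1 in either library or for Hapln1 and Matn1 in MGJ2, where nothing was left in other cells. Along Col10a1, 12 alternatives left 3 or 4 of 9 genes at least 2 times lower in MGJ and 5 of 8 in MGJ2. The count of 3 came when Vcan rose above the limit: with every cell weighted equally, with doublet calls kept, with chondrocyte-like clusters only (0.673) and with a total free of Col2a1 and Col10a1. Hapln1 in MGJ stayed between 2.13 and 2.40. With Col2a1-high set at 20000 CPM, 2 MGJ2 ratios whose intervals excluded 1 changed sides of it, Acan to 0.992 and Matn1 to 0.968; the cause was not tested. Of 486 alternative values, 306 were within their counting interval or count limit, 178 moved beyond it in the same direction and 2 were those of Acan and Matn1. Vcan in MGJ2 along Col10a1, whose interval spans 1, was below 1 in 4 of 12 alternatives, down to 0.814. A minimum of 20 UMIs changed no count of members. No paired analysis was possible because the labels give the 2 libraries no group and no replicate number. Depth limits Vcan and Matn1 in MGJ2 most.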
